A study of Mus musculus with 6 samples.

Results

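The genes described here are the apoptosis regulators and the members of the TNF receptor family that were measured in keratinocytes and mouse embryonic fibroblasts (MEFs). They were chosen by gene symbol: the symbols that begin with Bcl2, Casp and a digit, Tnfrsf, Tnfsf, Traf and a digit, or Birc other than Birc5, together with Bax, Bak1, Bid, Bad, Mcl1, Bbc3, Pmaip1, Fas, Cflar, Fadd, Apaf1 and Xiap. Of the 15648 probe sets in the deposited table, 11288 were paired with exactly 1 symbol, and 46 of these fitted the rule, which gave 43 of 10261 genes. Bax and Fas were not analysed here. The keratinocytes, which form most of the epidermis, were primary cells isolated from back skin on postnatal day 0 and cultured in a keratinocyte medium. Their strain is not given in the sources used. MEFs came from E13.5 embryos, C57BL/6J by the study's methods, and were grown in DMEM with serum. The protocol that accompanies the samples minces several embryos together after the head and inner organs are removed and gives DR-4 as the desired strain, so the strain of the MEFs is not settled. No cells were treated. Each cell type had 3 arrays (Affymetrix MoGene-1_0-st), numbered as biological replicates, and how many animals stand behind an array is not stated. Cell type, age and culture medium differed together between the groups and cannot be told apart, and in bulk RNA fewer expressing cells and less RNA per cell cannot be told apart either.

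Apoptosis is carried out by caspases, proteases that are activated along several routes. In the mitochondrial route, BH3-only proteins such as Bid and Bcl2l11 (Bim) sense damage or loss of survival signals, Bak1 and its relative Bax open the outer mitochondrial membrane, anti-apoptotic proteins such as Bcl2, Bcl2l1 (Bcl-xL) and Mcl1 hold them back, and released cytochrome c assembles Apaf1 and caspase-9. In the death receptor route, ligands of the TNF family bind receptors that recruit Fadd and caspase-8, while TNF receptors without a death domain signal through TRAF adaptors to NF-κB. Inhibitor of apoptosis proteins (IAPs) act on caspases and on receptor complexes. In skin these pathways are known for their part in inflammation and in keeping keratinocytes alive.

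Before the members were described, the labels were checked with Cdh1 and Vim. Cdh1, which encodes E-cadherin of epithelial junctions, had log2 signals of 3.33, 2.16 and 3.26 on the keratinocyte-labelled arrays and of 8.62, 8.59 and 8.73 on the MEF-labelled arrays. Vim, the vimentin gene of mesenchymal cells, had signals of 11.93, 11.97 and 12.03 on the keratinocyte-labelled arrays and of 3.81, 3.92 and 3.78 on the MEF-labelled arrays. Both genes ran against the labels (adjusted p = 4.03e-07 and 7.89e-10 from limma), as did 5 of 5 epithelial and 6 of 6 mesenchymal markers, so every direction below is that of the arrays as labelled. Were the labels exchanged between the groups in the deposited record, every direction would turn, which was not tested. Of the markers of other cells, 1 of 8 for macrophages and dendritic cells was measured: Cd68 was lower on the keratinocyte-labelled arrays, between 4.39 and 5.00, against 8.43 to 8.68 on the MEF-labelled arrays. Its part in the results for immune-related receptors was not tested. Of 4 endothelial markers 1 was measured, Kdr, which was above background on no array, and markers of T and B cells, mast cells and melanocytes were not analysed here. Background was set on each array at the 95th percentile of 10 probe sets for olfactory receptors and lay between 5.49 and 5.92 on the keratinocyte-labelled arrays and between 6.05 and 6.58 on the MEF-labelled arrays. It is a rough level, and a gene under it need not be silent. Against a group whose 3 arrays all lie at or under it, a fold is a lower bound.

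Across the 43 genes, 11 were higher and 21 lower on the keratinocyte-labelled arrays, and 11 did not pass an adjusted p under 0.05 (limma, adjusted over all 11288 probe sets with 1 symbol). Over all genes 74.5% passed, 32.9% being higher and 41.7% lower, against 25.6% higher and 48.8% lower among the members. With a log2 difference of at least 1 also required, 7 members were higher and 9 lower, where 14.1% of all genes were higher and 14.4% lower. The median log2 difference, keratinocyte-labelled minus MEF-labelled, was -0.30 over the members and -0.12 over all genes. The groups did not overlap for 35 members, and over all genes for 78.4%. For a single gene, an exact two-sided permutation test of 3 arrays against 3 cannot give a p under 0.1. The calls rest instead on the model of the fit, which also shares spread across probe sets. With the methods' t-test, which shares none, 12 members were higher and 21 lower, where 31.0% and 37.9% of all genes were. No array was above background for 13 members. Among the other 30, 6 were higher and 17 lower, where the shares over genes above background on at least 1 array were 34.8% and 43.1%.

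**Figure D1:**
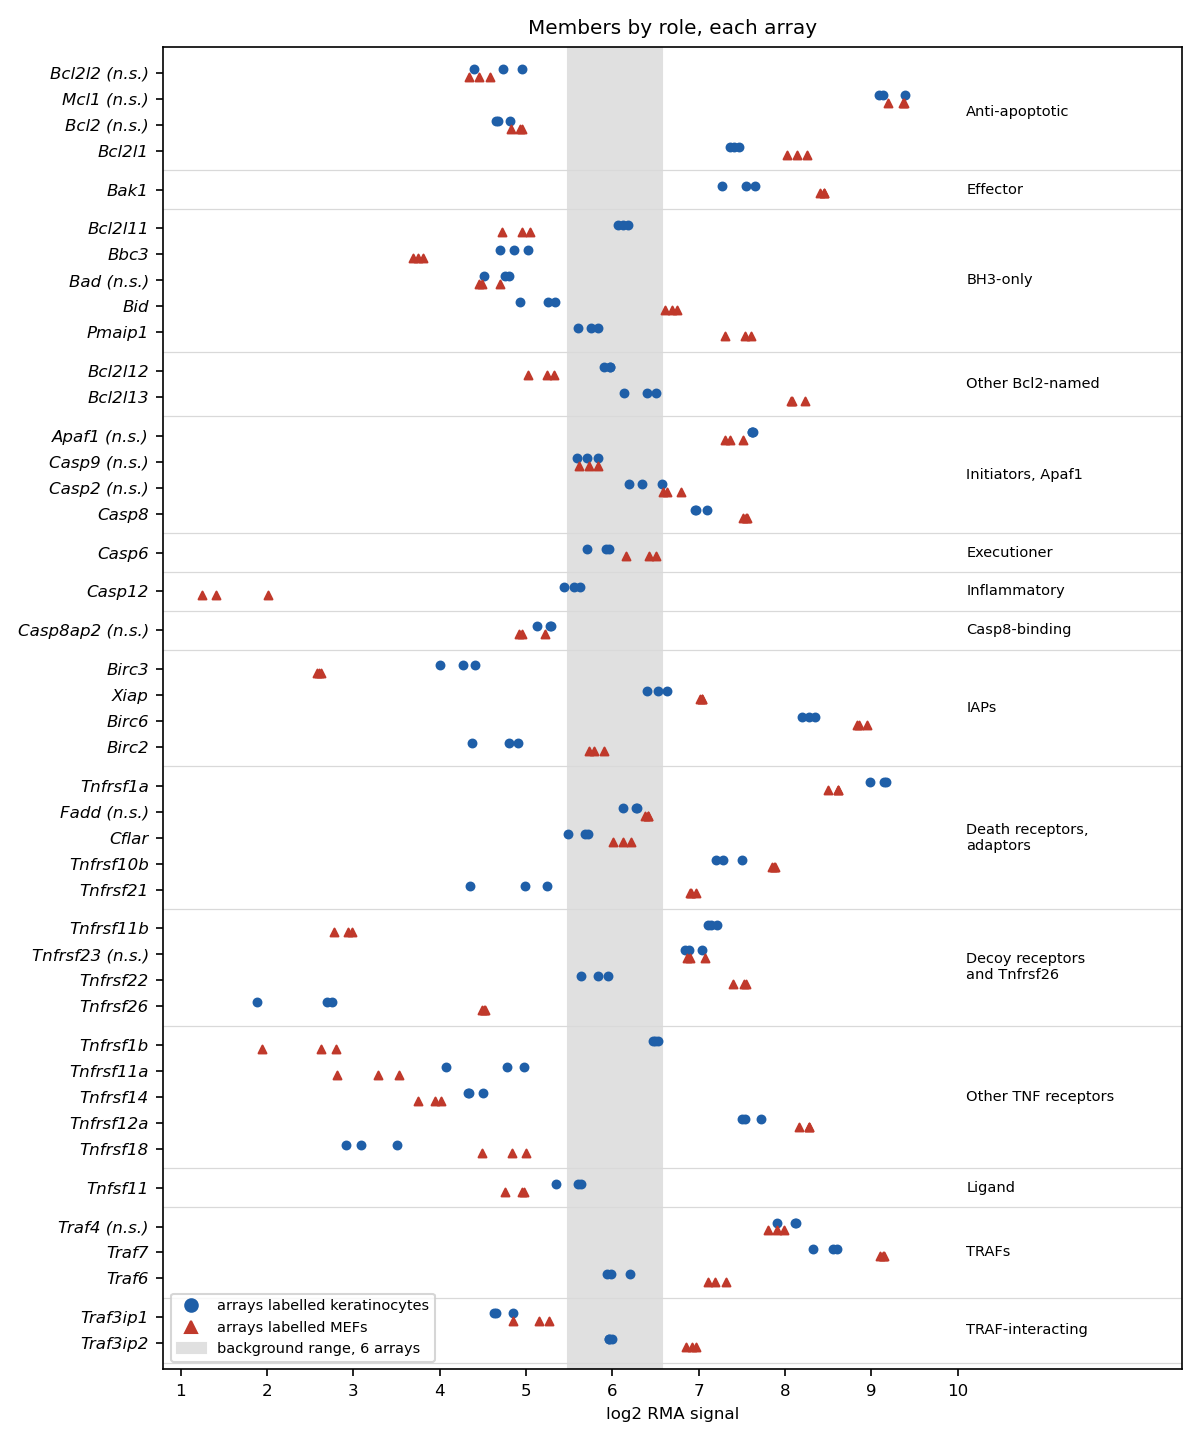
Log2 RMA signal (horizontal axis) of the 43 genes, ordered by role, on the 3 arrays labelled keratinocytes (blue circles) and the 3 labelled MEFs (red triangles), each point an array and the grey band the range of background over the 6 arrays. Genes marked n.s. did not pass the threshold. Tnfrsf11b, Tnfrsf1b and Casp12 lie under background on all arrays labelled MEFs, and 13 genes lie under background on every array.

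**Figure D2:**
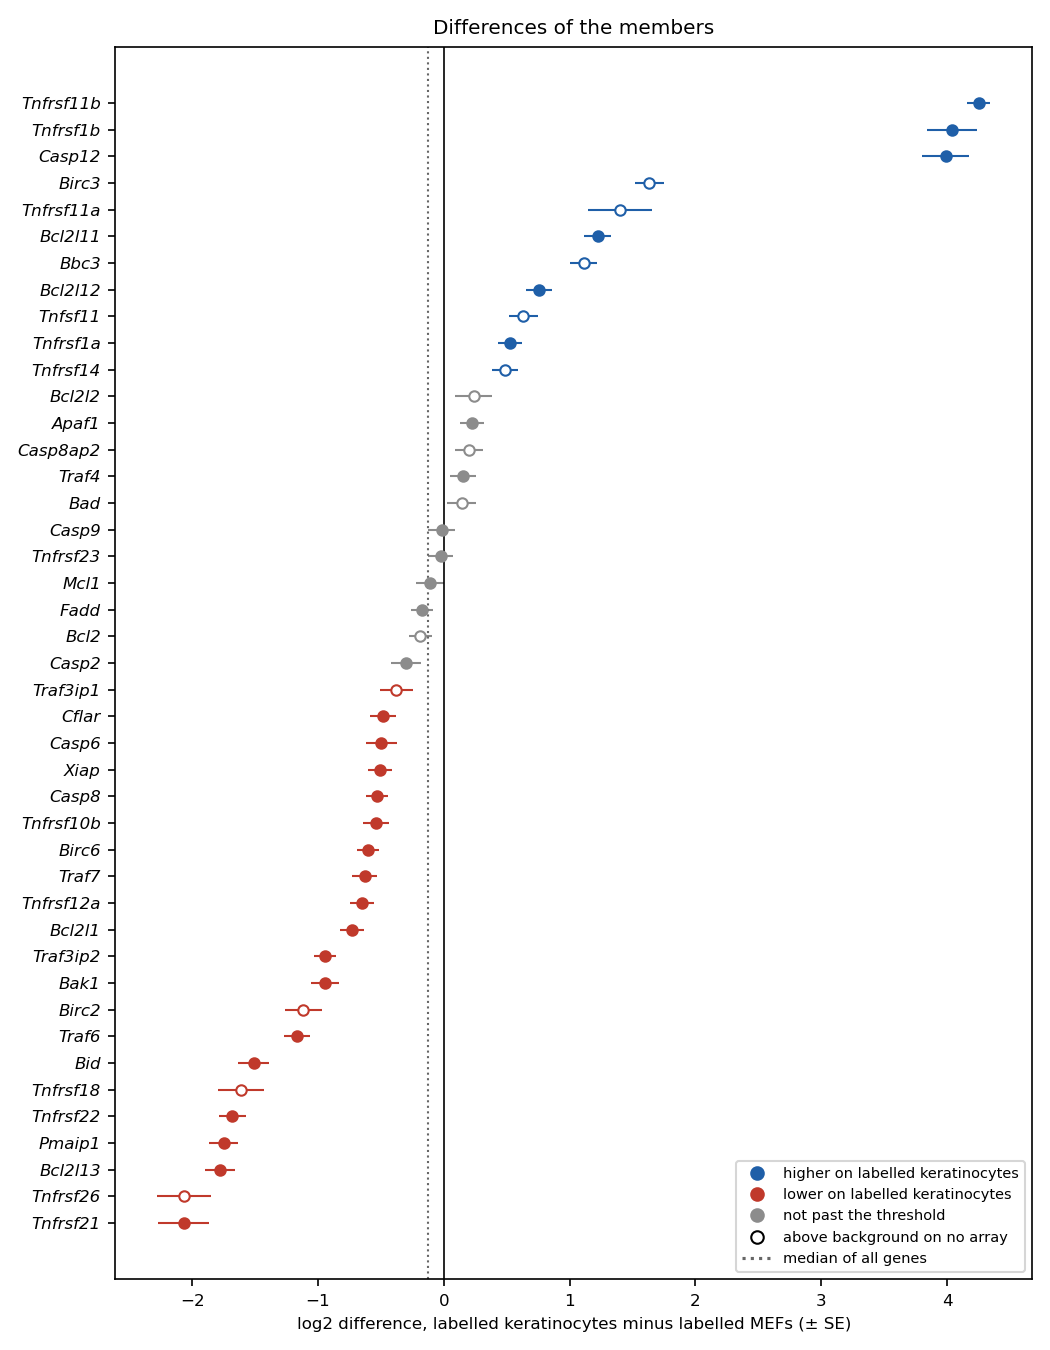
Log2 difference (horizontal axis, labelled keratinocytes minus labelled MEFs, ± SE, n = 3 arrays each) of the 43 genes in order. Filled points are genes above background on at least 1 array, open points those above it on none, and the dotted line is the median of all genes at -0.12. The 11 genes that were higher reach 4.25, and the 21 that were lower reach -2.07.

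Among the ligands and receptors of the TNF family, Tnfrsf11b and Tnfrsf1b were above background on every keratinocyte-labelled array and on no MEF-labelled array. Tnfrsf11b encodes osteoprotegerin, a secreted decoy for the ligand RANKL. It had log2 signals of 7.14, 7.11 and 7.21 on the keratinocyte-labelled arrays and of 2.94, 2.99 and 2.78 on the MEF-labelled arrays. The groups lay far apart, the MEF-labelled arrays all under background, and the gene was at least 1.70-fold higher on the keratinocyte-labelled arrays, with a measured log2 difference of 4.25 ± 0.09 (SE; adjusted p = 5.61e-09 from limma). RANKL itself, Tnfsf11, the 1 ligand measured under the rule, was higher on the same arrays, at 5.53 ± 0.16 against 4.90 ± 0.13 on the MEF-labelled arrays (SD, n = 3; adjusted p = 0.00123 from limma). Its receptor RANK, Tnfrsf11a, was also higher, at 4.61 ± 0.47 against 3.21 ± 0.36 on the MEF-labelled arrays (adjusted p = 0.00124 from limma). Both lay under background on all 6 arrays, and their folds are left out.

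The 2 receptors for TNF itself were both higher on the keratinocyte-labelled arrays. Tnfrsf1b, which encodes TNFR2, a receptor without a death domain, had signals of 6.49, 6.48 and 6.52 there and of 1.95, 2.63 and 2.80 on the MEF-labelled arrays. All 3 MEF-labelled arrays lay under background, and the log2 difference was 4.04 ± 0.20 (SE; adjusted p = 4.3e-07 from limma), at least 1.08-fold once the high background of those arrays is taken as their level. Tnfrsf1a, the death domain receptor TNFR1, was bright in both groups, with 8.99, 9.17 and 9.15 on the keratinocyte-labelled arrays and 8.61, 8.50 and 8.61 on the MEF-labelled arrays. It was 1.44-fold higher on the keratinocyte-labelled arrays, and the groups did not overlap (adjusted p = 0.00106 from limma). The promoter windows of the pair, 250 bases before to 50 after a transcription start in RefSeq on GRCm38.p6, are shown 5′ to 3′ because both receptors bind the same ligand and only Tnfrsf1b lay under background on the MEF-labelled arrays. Since the fold of Tnfrsf1b is a lower bound under that of Tnfrsf1a, the values do not show which of the pair differed more. Tnfrsf1b lies at chr4:145246821-145247120 on the minus strand and Tnfrsf1a at chr6:125349473-125349772 on the plus strand. Capitals mark matches on either strand to any of 5 motifs. The GC box was searched as GGGCGG. The CCAAT box was searched under the letters of its name. For the E-box the letters were CACCTG. For the cAMP response element they were TGACGTCA. The κB motif was 3 G, 2 of any base, 3 T and 2 C.
Tnfrsf1b: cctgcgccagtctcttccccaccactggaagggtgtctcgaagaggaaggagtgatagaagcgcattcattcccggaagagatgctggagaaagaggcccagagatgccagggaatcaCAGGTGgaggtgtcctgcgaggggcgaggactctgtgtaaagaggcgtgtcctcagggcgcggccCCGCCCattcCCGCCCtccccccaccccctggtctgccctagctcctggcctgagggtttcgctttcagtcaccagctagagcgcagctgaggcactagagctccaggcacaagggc
Tnfrsf1a: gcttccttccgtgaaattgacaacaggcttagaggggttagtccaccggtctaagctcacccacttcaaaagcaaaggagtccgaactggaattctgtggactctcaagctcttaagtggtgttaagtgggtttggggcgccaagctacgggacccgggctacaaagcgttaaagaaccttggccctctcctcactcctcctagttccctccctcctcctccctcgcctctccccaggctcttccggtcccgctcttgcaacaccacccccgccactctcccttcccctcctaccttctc
The Tnfrsf1b window held 2 GC boxes and 1 E-box, and none of the 5 motifs was found in that of Tnfrsf1a.

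Besides Tnfrsf1a, the death receptors measured under the rule were Tnfrsf21 and Tnfrsf10b. Both were lower on the keratinocyte-labelled arrays, where 41.7% of all genes were lower. Tnfrsf21, which encodes death receptor 6, had signals of 4.98, 4.35 and 5.25 on the keratinocyte-labelled arrays and of 6.97, 6.90 and 6.91 on the MEF-labelled arrays. It was under background throughout the keratinocyte-labelled arrays and at least 2.34-fold lower there (log2 difference -2.07 ± 0.20, SE; adjusted p = 3.2e-05 from limma). Tnfrsf10b, the mouse receptor that transmits death signals from TRAIL, stood at 7.20, 7.28 and 7.51 on the keratinocyte-labelled arrays and at 7.88, 7.85 and 7.89 on the MEF-labelled arrays. It was lower on the keratinocyte-labelled arrays without overlap (log2 difference -0.54 ± 0.10, SE; adjusted p = 0.00155 from limma). Tnfrsf22 encodes a mouse decoy receptor for TRAIL. It had signals of 5.84, 5.64 and 5.95 on the keratinocyte-labelled arrays and of 7.40, 7.53 and 7.55 on the MEF-labelled arrays, 3.21-fold lower on the keratinocyte-labelled arrays (adjusted p = 2.14e-06 from limma), where 2 of 3 arrays were above background. The other mouse decoy, Tnfrsf23, averaged 6.92 ± 0.10 on the keratinocyte-labelled arrays and 6.95 ± 0.11 on the MEF-labelled arrays (SD, n = 3) and did not pass (log2 difference -0.02 ± 0.10, SE; adjusted p = 0.841 from limma). Tnfrsf26, Tnfrsf22 and Tnfrsf23 follow each other on chromosome 7 with no other protein-coding gene between them in RefSeq on GRCm38.p6. Tnfrsf26 was lower on the keratinocyte-labelled arrays as well, at 2.75, 2.69 and 1.89 against 4.49, 4.52 and 4.53 on the MEF-labelled arrays (adjusted p = 4.11e-05 from limma), though above background on no array. Whether the difference between the groups varied among these 3 neighbours was not tested.

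Of the remaining receptors, Tnfrsf12a (Fn14, the receptor for TWEAK) had 7.51, 7.54 and 7.72 on the keratinocyte-labelled arrays and 8.27, 8.17 and 8.28 on the MEF-labelled arrays. It was 1.57-fold lower on the keratinocyte-labelled arrays, with no overlap (adjusted p = 0.000374 from limma). Tnfrsf18 (GITR), best known from T cells, was lower there too, at 3.17 ± 0.31 against 4.78 ± 0.26 on the MEF-labelled arrays, and Tnfrsf14 (HVEM) was higher, at 4.39 ± 0.10 against 3.91 ± 0.14 (SD, n = 3; adjusted p = 7.35e-05 and 0.0033 from limma). Both lay under background on every array. Of the 12 genes with Tnfrsf symbols, 5 were higher (41.7%) and 6 lower (50.0%) on the keratinocyte-labelled arrays and 1 did not pass. Over all genes 32.9% were higher and 41.7% lower. Of the 12 genes, 4 were above background on no array.

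**Figure D3:**
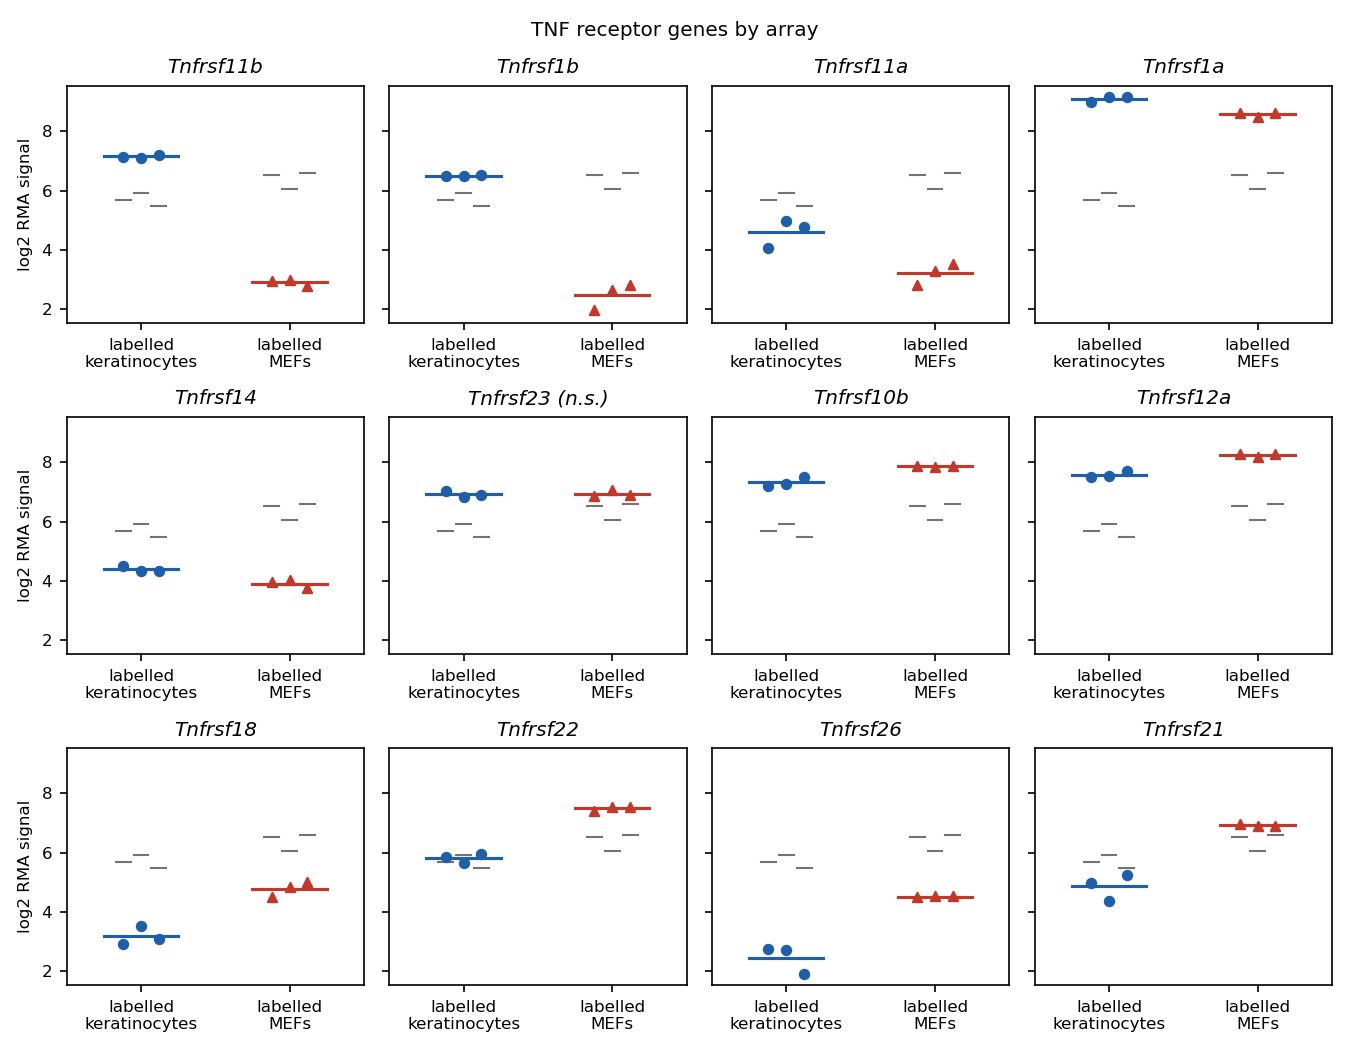
Log2 RMA signal (vertical axis) of the 12 TNF receptor genes on the 3 arrays labelled keratinocytes (blue circles, left) and the 3 labelled MEFs (red triangles, right), with a line at each group mean and grey ticks at the background of each array. Tnfrsf11b and Tnfrsf1b are above background on the arrays labelled keratinocytes only, and Tnfrsf21 on those labelled MEFs only.

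Casp8 and, by its brightest probe set, Cflar, which act below the death receptors, were lower on the keratinocyte-labelled arrays, and Fadd did not pass. Casp8, the initiator caspase of death receptors, had signals of 6.96, 6.97 and 7.10 on the keratinocyte-labelled arrays and of 7.55, 7.52 and 7.56 on the MEF-labelled arrays. It was 1.45-fold lower on the keratinocyte-labelled arrays, and the groups did not overlap (adjusted p = 0.000657 from limma). Cflar, which encodes c-FLIP, a relative of caspase-8 that restrains it, was read by 3 probe sets. The brightest averaged 5.63 ± 0.12 on the keratinocyte-labelled arrays and 6.12 ± 0.10 on the MEF-labelled arrays (SD, n = 3; adjusted p = 0.00289 from limma). It was above background on only 1 keratinocyte-labelled array and 1 MEF-labelled array. A second probe set passed in the same direction (log2 difference -0.35 ± 0.11, SE; adjusted p = 0.0225 from limma), and the remaining one did not (log2 difference -0.07 ± 0.21, SE; adjusted p = 0.789 from limma). With the mean of the 3, Cflar no longer passed (adjusted p = 0.0581 from limma). Cflar and Casp8 are next to each other on chromosome 1. Fadd, the adaptor between death receptors and caspase-8, averaged 6.23 ± 0.09 on the keratinocyte-labelled arrays and 6.40 ± 0.02 on the MEF-labelled arrays (SD, n = 3; adjusted p = 0.111 from limma).

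TRAF proteins are ubiquitin ligases and scaffolds of TNF, interleukin-1 and Toll-like receptor signalling. Traf6, which also serves RANK, had 6.20, 5.94 and 5.98 on the keratinocyte-labelled arrays and 7.19, 7.31 and 7.11 on the MEF-labelled arrays, 2.24-fold lower on the keratinocyte-labelled arrays (adjusted p = 1.95e-05 from limma). Traf7 had 8.33, 8.60 and 8.56 on the keratinocyte-labelled arrays and 9.13, 9.10 and 9.15 on the MEF-labelled arrays, 1.55-fold lower on the keratinocyte-labelled arrays (adjusted p = 0.00059 from limma). For both genes every keratinocyte-labelled array lay below every MEF-labelled one. Traf4 averaged 8.05 ± 0.12 on the keratinocyte-labelled arrays and 7.90 ± 0.09 on the MEF-labelled arrays (SD, n = 3) and did not pass (adjusted p = 0.202 from limma). Traf3ip2 encodes Act1, the adaptor of the interleukin-17 receptor. Its signals were 5.96, 5.96 and 6.00 on the keratinocyte-labelled arrays and 6.93, 6.86 and 6.98 on the MEF-labelled arrays, 1.92-fold lower on the keratinocyte-labelled arrays (adjusted p = 1.69e-05 from limma). Traf3ip1, a gene of cilium assembly, was lower by a small margin with overlapping groups and under background on every array (log2 difference -0.38 ± 0.13, SE; adjusted p = 0.0276 from limma). Its call was lost when any of 4 arrays was left out, namely replicates 2 and 3 of either label (adjusted p between 0.0719 and 0.103 from limma).

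Of 4 IAP genes, 3 were lower and 1 higher on the keratinocyte-labelled arrays, where 41.7% of all genes were lower and 32.9% higher. Xiap, the IAP that binds and inhibits caspases directly, had signals of 6.64, 6.40 and 6.53 on the keratinocyte-labelled arrays and of 7.04, 7.01 and 7.04 on the MEF-labelled arrays, 1.42-fold lower on the keratinocyte-labelled arrays (adjusted p = 0.00135 from limma). Birc6, a very large IAP that conjugates ubiquitin, stood at 8.35, 8.20 and 8.28 on the keratinocyte-labelled arrays and at 8.85, 8.83 and 8.95 on the MEF-labelled arrays, 1.52-fold lower on the keratinocyte-labelled arrays (adjusted p = 0.000391 from limma). Neither gene overlapped between the groups. Birc2 (cIAP1) and Birc3 (cIAP2) encode close relatives that ubiquitinate the TNFR1 complex, and their genes are neighbours on chromosome 9, yet they were called in opposite directions. Birc2 had 4.91, 4.37 and 4.80 on the keratinocyte-labelled arrays and 5.73, 5.79 and 5.91 on the MEF-labelled arrays (adjusted p = 0.000172 from limma), and its other probe set was also lower on the keratinocyte-labelled arrays (adjusted p = 0.000199 from limma). Birc3 was higher, with 4.27, 4.01 and 4.41 on the keratinocyte-labelled arrays and 2.60, 2.62 and 2.57 on the MEF-labelled arrays (adjusted p = 3.93e-06 from limma). All of these values were under background, so no fold is given. The windows before their starts are printed because the neighbours were called in opposite directions, Birc3 at chr9:7873121-7873420 and, of 2 overlapping windows of Birc2, the one farther upstream at chr9:7837008-7837307, both on the minus strand and marked as above.
Birc3: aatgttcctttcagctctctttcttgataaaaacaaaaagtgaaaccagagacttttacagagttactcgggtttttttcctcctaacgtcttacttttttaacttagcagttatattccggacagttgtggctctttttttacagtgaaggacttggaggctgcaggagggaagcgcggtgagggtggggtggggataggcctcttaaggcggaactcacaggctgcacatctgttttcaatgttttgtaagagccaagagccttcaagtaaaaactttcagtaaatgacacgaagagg
Birc2: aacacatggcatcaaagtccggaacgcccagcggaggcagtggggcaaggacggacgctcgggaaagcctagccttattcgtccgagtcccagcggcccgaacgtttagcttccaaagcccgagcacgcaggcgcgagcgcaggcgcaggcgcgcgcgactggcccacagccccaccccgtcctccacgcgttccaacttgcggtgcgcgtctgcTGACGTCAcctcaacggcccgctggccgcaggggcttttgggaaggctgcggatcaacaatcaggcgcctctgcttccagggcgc
The Birc2 window shown held 1 cAMP response element, and no motif was found in that of Birc3. The other Birc2 window, at chr9:7836757-7837056, held 2 GC boxes and 1 CCAAT box. Of 43 members, 37 had at least 1 window, 46 in all. A GC box was found in 65.2% of member windows and in 35.7% of all 32851 windows, a CCAAT box in 26.1% and 37.4%, an E-box in 15.2% and 20.2%, a cAMP response element in 2.17% and 1.79%, and a κB motif in 6.52% and 1.63%. The 32851 windows were not limited to genes measured here, so these shares do not set the members against other measured genes. The κB matches were in 3 genes, Bbc3, Bcl2l1 and Mcl1, of which Bbc3 was called higher, Bcl2l1 was called lower and Mcl1 did not pass. No motif's letters contain another's, and a match is a run of letters, not a site of binding.

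Casp12 was the 1 caspase gene that was higher on the keratinocyte-labelled arrays. Mouse caspase-12 is placed with the inflammatory caspases and lies at the endoplasmic reticulum. Its signals were 5.63, 5.44 and 5.56 on the keratinocyte-labelled arrays and 1.25, 1.40 and 2.01 on the MEF-labelled arrays, a log2 difference of 3.99 ± 0.19 (SE; adjusted p = 2.95e-07 from limma). The groups were far apart, but Casp12 was above background on 1 of 6 arrays, so the size of the change is not given as a fold. Casp6, an executioner caspase, averaged 5.87 ± 0.14 on the keratinocyte-labelled arrays and 6.36 ± 0.18 on the MEF-labelled arrays (SD, n = 3) and was lower on the keratinocyte-labelled arrays (adjusted p = 0.00638 from limma). It was above background on 2 keratinocyte-labelled arrays and 1 MEF-labelled array, so no fold is given. The apoptosome genes and Casp2 did not pass. Casp9 had a log2 difference of -0.02 ± 0.10 (adjusted p = 0.882 from limma), Apaf1 of 0.22 ± 0.09 (adjusted p = 0.0531 from limma) and Casp2, an initiator caspase of genotoxic stress, of -0.30 ± 0.12 (SE; adjusted p = 0.051 from limma). The groups did not overlap for Apaf1 or Casp2, whose p-values lay just over the threshold and fell under it in several alternatives. Apaf1 passed without MEF replicate 3 (adjusted p = 0.0427 from limma) and Casp2 without keratinocyte replicate 1 (adjusted p = 0.0124 from limma). In other alternatives the values rose, for Apaf1 without MEF replicate 2 (adjusted p = 0.181 from limma) and for Casp2 without MEF replicate 3 (adjusted p = 0.163 from limma). Casp8ap2 encodes FLASH, a histone RNA processing factor named for caspase-8 binding, and did not pass (log2 difference 0.20 ± 0.11, SE; adjusted p = 0.129 from limma), though it passed without MEF replicate 2 (adjusted p = 0.049).

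In the Bcl2 family, the BH3-only genes split by direction. Pmaip1 (Noxa), which binds Mcl1 and is a target of p53, had signals of 5.75, 5.60 and 5.84 on the keratinocyte-labelled arrays and of 7.30, 7.60 and 7.53 on the MEF-labelled arrays, 3.36-fold lower on the keratinocyte-labelled arrays (adjusted p = 2.25e-06 from limma), where 2 of 3 arrays were above background. Bid, which caspase-8 cleaves to link death receptors to mitochondria, had 4.93, 5.34 and 5.26 on the keratinocyte-labelled arrays, all under background, and 6.75, 6.62 and 6.69 on the MEF-labelled arrays. It was at least 1.98-fold lower on the keratinocyte-labelled arrays (adjusted p = 9.27e-06 from limma). Bcl2l11 (Bim), which responds to loss of growth factors, went the other way, with 6.18, 6.07 and 6.13 on the keratinocyte-labelled arrays and 4.72, 5.05 and 4.95 on the MEF-labelled arrays (log2 difference 1.22 ± 0.11, SE; adjusted p = 1.55e-05 from limma). It was above background on all keratinocyte-labelled arrays, but the background of the MEF-labelled arrays was on average higher than its level, so no fold is given. Bbc3 (Puma), another p53 target, was higher on the keratinocyte-labelled arrays as well, at 4.86 ± 0.16 against 3.75 ± 0.05 on the MEF-labelled arrays (SD, n = 3; adjusted p = 2.63e-05 from limma), under background on every array. Bad did not pass (log2 difference 0.14 ± 0.11, SE; adjusted p = 0.283 from limma).

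Bak1, the effector that forms pores in the mitochondrial outer membrane, had signals of 7.27, 7.65 and 7.55 on the keratinocyte-labelled arrays and of 8.46, 8.40 and 8.45 on the MEF-labelled arrays, 1.93-fold lower on the keratinocyte-labelled arrays (adjusted p = 0.000111 from limma). Bcl2l1, which encodes the survival protein Bcl-xL, was lower on the same arrays, with 7.42, 7.47 and 7.36 against 8.02, 8.14 and 8.26 on the MEF-labelled arrays, 1.66-fold (adjusted p = 0.000192 from limma). The groups did not overlap for either gene. The other survival genes did not pass. Mcl1 was bright in both groups, with 9.39, 9.09 and 9.14 on the keratinocyte-labelled arrays and 9.19, 9.36 and 9.38 on the MEF-labelled arrays, and the groups overlapped (log2 difference -0.11 ± 0.11, SE; adjusted p = 0.406 from limma). Bcl2 had 4.68, 4.65 and 4.81 on the keratinocyte-labelled arrays and 4.83, 4.93 and 4.95 on the MEF-labelled arrays, under background on every array (log2 difference -0.19 ± 0.09, SE; adjusted p = 0.0921 from limma). Bcl2l2 (Bcl-w) was under background as well (log2 difference 0.24 ± 0.15, SE; adjusted p = 0.169 from limma). Its log2 difference was 0.39 without keratinocyte replicate 3, which passed (adjusted p = 0.0241 from limma), and 0.11 without keratinocyte replicate 1. Bcl2l13 encodes a mitochondrial outer membrane protein that takes part in mitophagy, and its gene is next to Bid on chromosome 6. Its signals were 6.51, 6.13 and 6.41 on the keratinocyte-labelled arrays and 8.08, 8.07 and 8.23 on the MEF-labelled arrays, 3.43-fold lower on the keratinocyte-labelled arrays (adjusted p = 2.71e-06 from limma). Bcl2l12 was higher there, with 5.91, 5.98 and 5.97 against 5.33, 5.02 and 5.24 on the MEF-labelled arrays (adjusted p = 0.00024 from limma), and no fold is given because the background of the MEF-labelled arrays was higher than these values. Thus there were 4 neighbouring sets among the members. Cflar and Casp8 were both lower, Cflar by its brightest probe set but not by the mean of its probe sets. Bid and Bcl2l13 were both lower, and Birc2 and Birc3 were opposite. In the Tnfrsf26, Tnfrsf22 and Tnfrsf23 cluster 2 were lower. Over all genes 41.7% were lower and 32.9% higher. Tnfrsf26, Birc2 and Birc3 were above background on no array.

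Other genes of these pathways, from 6 lists that leave out the members, were read in the same fit. Of 57 measured genes, 17 were higher and 31 lower on the keratinocyte-labelled arrays and 9 did not pass, which is 29.8% higher and 54.4% lower against 32.9% and 41.7% over all genes, with a median log2 difference of -0.31. With any 1 array left out, 11 to 13 were higher and 27 to 30 lower, where 30.0% to 32.2% and 36.5% to 40.9% of all genes were. The higher count was lowest, at 11, without keratinocyte replicate 3. In the list of TNF receptor adaptors and kinases, 4 of 16 were higher and 10 lower. Ripk4, a kinase needed for epidermal differentiation, had 2.46, 3.20 and 3.17 on the keratinocyte-labelled arrays and 7.34, 7.43 and 7.52 on the MEF-labelled arrays, at least 3.31-fold lower on the keratinocyte-labelled arrays (adjusted p = 1.73e-07 from limma). Mlkl, which ruptures the plasma membrane in necroptosis, stood at 4.86, 4.46 and 4.56 on the keratinocyte-labelled arrays and at 7.27, 7.68 and 7.62 on the MEF-labelled arrays, at least 3.54-fold lower on the keratinocyte-labelled arrays (adjusted p = 5.04e-07 from limma). Its activating kinase Ripk3 was 1.27-fold higher on the keratinocyte-labelled arrays, with 7.50, 7.47 and 7.58 against 7.17, 7.18 and 7.15 on the MEF-labelled arrays (adjusted p = 0.00532 from limma). The TAK1-binding genes Tab3 and Tab2 were called in opposite directions. Tab3 was at least 2.25-fold lower on the keratinocyte-labelled arrays, at 5.19 ± 0.42 against 6.87 ± 0.19 on the MEF-labelled arrays, and Tab2 1.98-fold higher, at 9.09 ± 0.12 against 8.11 ± 0.06 (SD, n = 3; adjusted p = 0.000105 and 2.92e-05 from limma).

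Of 10 NF-κB genes, 3 were higher (30.0%) and 6 lower (60.0%) on the keratinocyte-labelled arrays, against 32.9% and 41.7% over all genes. Nfkbia, the inhibitor IκBα that NF-κB itself induces, had 5.86, 5.78 and 5.66 on the keratinocyte-labelled arrays and 7.85, 8.03 and 8.10 on the MEF-labelled arrays, 4.68-fold lower on the keratinocyte-labelled arrays (adjusted p = 2.99e-07 from limma). Rel, a subunit of NF-κB, was lower, at 5.55 ± 0.17 against 6.93 ± 0.04 on the MEF-labelled arrays (SD, n = 3; adjusted p = 6.85e-06 from limma). The Rel and Nfkbia signals of the keratinocyte-labelled arrays were above background on 2 of 3 arrays and close to it, and no fold is given for Rel. Ikbkb, a kinase of IκB, was 1.70-fold lower (adjusted p = 0.00018 from limma). Nfkb2, of the non-canonical branch, was 1.42-fold higher, at 7.44 ± 0.17 against 6.93 ± 0.09 on the MEF-labelled arrays (SD, n = 3; adjusted p = 0.00337 from limma). Among 5 TNF family genes with other symbols, 4 were higher, the lymphotoxin receptor gene Ltbr 1.20-fold and the ectodysplasin receptor gene Eda2r 1.21-fold, above background on 1 MEF-labelled array (adjusted p = 0.0268 and 0.0276 from limma), and the ligand gene Eda was lower, under background.

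Of 16 mitochondrial effectors and further BH3 genes, 3 were higher (18.8%) and 10 lower (62.5%) on the keratinocyte-labelled arrays, against 32.9% and 41.7% over all genes. Bnip3, a mitochondrial protein that hypoxia induces, had 8.14, 8.11 and 8.24 on the keratinocyte-labelled arrays and 4.64, 4.91 and 4.74 on the MEF-labelled arrays, at least 3.43-fold higher on the keratinocyte-labelled arrays (adjusted p = 2.41e-08 from limma). Opa1, which keeps the cristae closed, was 1.87-fold lower, Aifm1, the apoptosis-inducing factor gene, 1.79-fold lower and Cycs, the cytochrome c gene, 1.62-fold lower on the keratinocyte-labelled arrays (adjusted p = 0.000112, 6.43e-05 and 0.0015 from limma). Of 7 p53 target or regulator genes, 2 were higher and 2 lower (28.6% each). Perp, which p53 induces in apoptosis and which also builds desmosomes in the epidermis, had 4.19, 4.20 and 4.30 on the keratinocyte-labelled arrays and 9.98, 10.07 and 9.96 on the MEF-labelled arrays, at least 19.7-fold lower on the keratinocyte-labelled arrays (adjusted p = 2.28e-09 from limma). Sesn2, a stress-induced regulator of growth signalling, was at least 2.41-fold higher, at 7.65 ± 0.12 against 6.13 ± 0.14 on the MEF-labelled arrays (SD, n = 3; adjusted p = 4.77e-06 from limma). Of 3 measured caspase substrates and inflammasome genes, 1 was higher and 2 lower. The higher gene and 1 of the lower genes were above background on no array. Parp1, whose product caspases cleave, was above background on every array and 1.75-fold lower on the keratinocyte-labelled arrays (adjusted p = 6.22e-05 from limma).

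**Figure D4:**
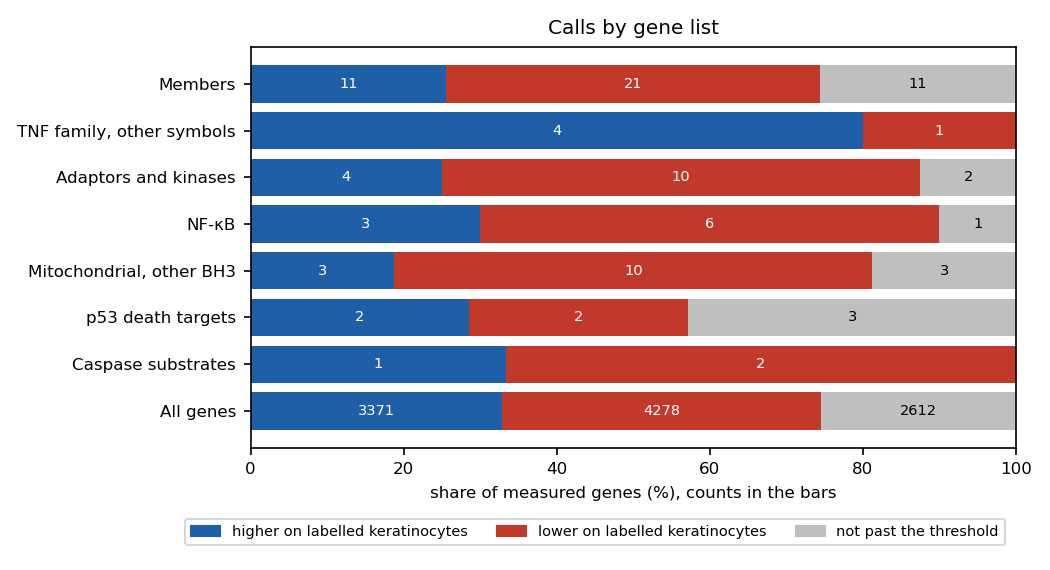
Share of measured genes (horizontal axis, %) that were higher (blue) or lower (red) on the arrays labelled keratinocytes than on those labelled MEFs or did not pass the threshold (grey), for the 43 members, 6 lists of further pathway genes and all 10261 genes, with counts in the bars. Of the members 11 were higher and 21 lower.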

How the data were processed

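Processed log2 values of 6 arrays (MoGene-1_0-st) were used, 3 labelled keratinocytes and 3 labelled MEFs. The study's methods name RMA in oligo, version 1.46.0 by the submitters' processing notes. The authors deposited 1 log2 signal per probe set and array, and that this is the RMA output was inferred from its range. RMA brings arrays to 1 distribution and pulls dim signals to a floor, which can shrink differences of dim genes. What selected the 15648 probe sets is not stated. The platform's probe table names 11288 with 1 symbol, 645 with several, left unnamed (1 of them holds symbols of TNF ligands), and none for 3715.

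Differences, keratinocytes minus MEF as labelled, were fitted over all 11288 with limma 3.58.1 (lmFit, eBayes; R 4.3.3), without a block, with Benjamini-Hochberg adjustment over all of them. Each gene stands for its probe set with the highest mean over the 6 arrays. Tested on simulated data with 200 of 11288 probe sets changed, the fit recovered 86% of log2 changes of 1 and 100% of changes of 2, with 2.11% of calls false. In the data 74.5% of genes passed, so these rates need not hold there.

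The members and lists were chosen with earlier results of these data known. Values on every array are given for up to 3 members of a role and direction with the largest differences that passed, did not overlap and were above background throughout 1 group, for Casp8, Bcl2, Mcl1 and Tnfrsf1a, for Cdh1 and Vim, and, chosen after their values were seen, for Casp12, Birc2, Birc3 and Tnfrsf26. Of the pathway lists, up to 3 genes in each direction were eligible by the same rule. Also named after their values were seen were Eda and Kdr. Promoter windows and gene order are from RefSeq (GRCm38.p6), and no gene coordinates accompany the arrays. The windows shown were chosen after the values were seen.

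The alternatives concerned the scaling (median centring, quantile), the dim probe sets (2 filters) and the arrays (each left out). They also concerned the model (replicate block, array weights, robust eBayes together with an intensity trend, an unpaired Student's t-test). Further ones concerned the probe sets (a gene's mean, or every probe set tested) and the call (a log2 difference of at least 1). Figures used matplotlib 3.10.9 (Python 3.11.15). The number of arrays limits the precision.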

Additional observations from a re-analysis of the deposited data

How the results depend on the processing

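Of the 43 members, 34 kept their direction and their side of the threshold in every alternative other than the 2 filters on dim probe sets and the minimum difference. The 9 others were Traf3ip1, Cflar, Apaf1, Casp2, Casp8ap2, Fadd, Bcl2l2, Casp9 and Tnfrsf23, of which Traf3ip1 and Cflar had passed. Casp9 and Tnfrsf23, which did not pass, changed sign: Casp9 stood at 0.0789 with median centring, 0.0571 with quantile normalization and between -0.0796 and 0.0406 with an array left out, and Tnfrsf23 at 0.0732 with median centring, 0.0905 with quantile normalization and between -0.0813 and 0.0387 with an array left out (log2 differences), the cause of which was not tested. With each array left out in turn, 11 to 12 members were higher and 20 to 22 lower on the keratinocyte-labelled arrays. Of the 57 further pathway genes 11 to 13 were then higher and 27 to 30 lower. Over all genes 30.0% to 32.2% were higher and 36.5% to 40.9% lower in these fits. Filters test fewer genes, by construction: among probe sets above background on at least 3 arrays (27 members and 35 pathway genes) 6 members were higher and 17 lower (all genes 36.7% and 45.4%) and 10 pathway genes higher, and among those at or above the median (20 and 29) 2 members were higher and 14 lower (all genes 32.9% and 48.8%), 9 pathway genes higher and 18 lower. With a log2 difference of at least 1 required, 7 members were higher and 9 lower (all genes 14.1% and 14.4%), and 3 pathway genes were higher and 9 lower. Median centring moved the median difference of all genes to -0.025 and gave 13 higher and 20 lower members, where 3801 of all genes were higher and 3733 lower (3371 and 4278 without it). Apaf1 also passed with median centring and quantile normalization, the trend fit and the unpaired t-test, and Casp2 with array weights, the trend fit and the mean of probe sets (adjusted p between 0.0113 and 0.0487), and both passed under the filters. Apaf1 did not pass with the replicate block or array weights (adjusted p = 0.117 and 0.0815 from limma). Casp2 did not pass with median centring or quantile normalization (adjusted p = 0.144 and 0.141 from limma). Whether same-numbered arrays share more than a number is not stated. Their deviations from the group means correlated at -0.23, -0.21 and -0.03, which cannot settle this with 3 arrays in a group. With the replicate block 11 members were higher and 20 lower (all genes 30.4% and 38.4%), with Traf3ip1 lost. For 13 members no array was above background, which limits what their levels show.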
